A study of Saccharomyces cerevisiae S288C with 8 samples.

Results

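The sites occupied by overexpressed Cse4, the centromeric histone H3 variant of budding yeast, were compared between a cdc7-7 strain and a wild type strain of S. cerevisiae. The members are all peaks in the deposited lists of the cdc7-7 OE Cse4 ChIP and the WT OE Cse4 ChIP, 2203 and 46 peaks. Together they make 2249 of the 3243 peaks in the 4 lists of the series. Both strains carried GAL-CSE4-FLAG, a tagged Cse4 under the galactose-inducible GAL promoter, called GAL-FLAG-CSE4 in the study. Cells were grown at 23°, the permissive temperature for cdc7-7, and were in raffinose/galactose for 1.75 hr before formaldehyde crosslinking, sonication and pull-down with anti-FLAG beads. The strains differ by the cdc7-7 allele of CDC7, a temperature sensitive mutation. Each strain gave 1 ChIP library with its own input, so the values have no replicate check, no test between strains was possible, and a strain and its library cannot be told apart. The GAL promoter overexpresses Cse4, so the lists describe where excess Cse4 was found and not the usual occupancy. The endogenous Cse4 lists of the series, 811 peaks in wild type and 183 in cdc7-7, are used below for overlaps alone. Per the study, those cells grew at 23° in glucose, with Cse4 under its own promoter.

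Each yeast chromosome has 1 point centromere (CEN), built of the conserved elements CDEI and CDEIII with the AT-rich CDEII between them. CDEI is bound by Cbf1, CDEIII by the CBF3 complex, and a Cse4 nucleosome sits on this DNA and carries the kinetochore. Cdc7 is the catalytic subunit of the Dbf4-dependent kinase, best known for starting DNA replication. Cse4 outside centromeres is normally limited by proteolysis, in which the E3 ubiquitin ligase Psh1 takes part. The comparison asks where Cse4 gathers when Cdc7 is defective.

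The centromeric elements below belong to CEN13 (the strongest peak in both strains), CEN12 (no overlapping cdc7-7 peak), CEN9 (the smallest loss of enrichment) and CEN14 (the largest loss). They were read from RefSeq build R64, from CDEI to CDEIII on the strand given, and the capitals mark the CACATG or CACGTG core of CDEI and the CCGAA of CDEIII.
CEN13 CDEI, chrXIII:268031-268040, plus strand: atCACATGac
CEN13 CDEIII, chrXIII:268125-268149, plus strand: tgtgtatgcgttCCGAActttaaat
CEN12 CDEI, chrXII:150938-150947, minus strand: atCACGTGta
CEN12 CDEIII, chrXII:150828-150852, minus strand: tgtatttgttatCCGAAcaataaaa
CEN9 CDEI, chrIX:355629-355638, plus strand: ttCACGTGaa
CEN9 CDEIII, chrIX:355721-355745, plus strand: tggttttgttttCCGAAatgttttt
CEN14 CDEI, chrXIV:628758-628767, plus strand: gtCACGTGca
CEN14 CDEIII, chrXIV:628851-628875, plus strand: tgtatttgtcttCCGAAaagtaaaa

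All 4 centromeres hold both cores. The CDEII between them had an AT content of 86.9% at CEN13, 94.1% at CEN12, 97.6% at CEN9 and 94.0% at CEN14.

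Of the cdc7-7 peaks, 15 overlapped a centromere and 2188 did not, against 16 and 30 of the wild type peaks. Fold enrichment is the deposited value, the number of fragments over the summit plus 1 divided by the local background plus 1. The non-CEN peaks had a median fold enrichment of 1.53 in cdc7-7 (from 1.10 to 2.54) and 1.94 in wild type (from 1.63 to 2.46). The sites gained in cdc7-7, meaning the 2168 non-CEN peaks that overlap no wild type non-CEN peak, were many and weak. They covered 1213569 bp, 10.1% of the nuclear genome, with a median width of 476.5 bp (272 to 2932 bp), a median summit pileup of 220 fragments and a median background of 141.8 fragments.

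The cdc7-7 peaks had the higher background in fragments. This background is the local rate set by MACS, which was run against each input, and not Cse4 signal measured between peaks. Pileup and background are fragment counts that were not scaled to library depth. The study reports that its ChIP libraries differed in their number of unique alignments, and library totals were not analysed here. Background at the CEN summits was 145.6 fragments at the median in cdc7-7 and 37.9 in wild type, and the weakest listed peak had a −log10 p of 2.30 in cdc7-7 and 4.09 in wild type. Multiplying every cdc7-7 pileup and background by 0.260, the ratio of the wild type to the cdc7-7 background, left 566 non-CEN peaks at or above the weakest wild type −log10 p, 18.9 times the 30 of wild type. This rescales called summits and is not a new peak calling. A minimum fold enrichment equal to the lowest in the wild type list left 694 against 30 peaks. A minimum of 2 left 78 against 10.

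At the centromeres, the cdc7-7 peaks were wider than their wild type partners, lower in enrichment, and set off to the side of the centromere. Over the 15 centromeres with a peak in both strains, the width was 1338 bp at the median in cdc7-7 (790 to 2905 bp) and 872 bp in wild type (628 to 1152 bp). The cdc7-7 peak was wider at 15 of 15, by 355 bp at the median (83 to 1753 bp), and the ratio of widths had a median of 1.42 (1.12 to 3.54). Widths are those of the deposited peaks and were not compared at equal background. The part of the background difference in the width was not tested.

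**Figure D1:**
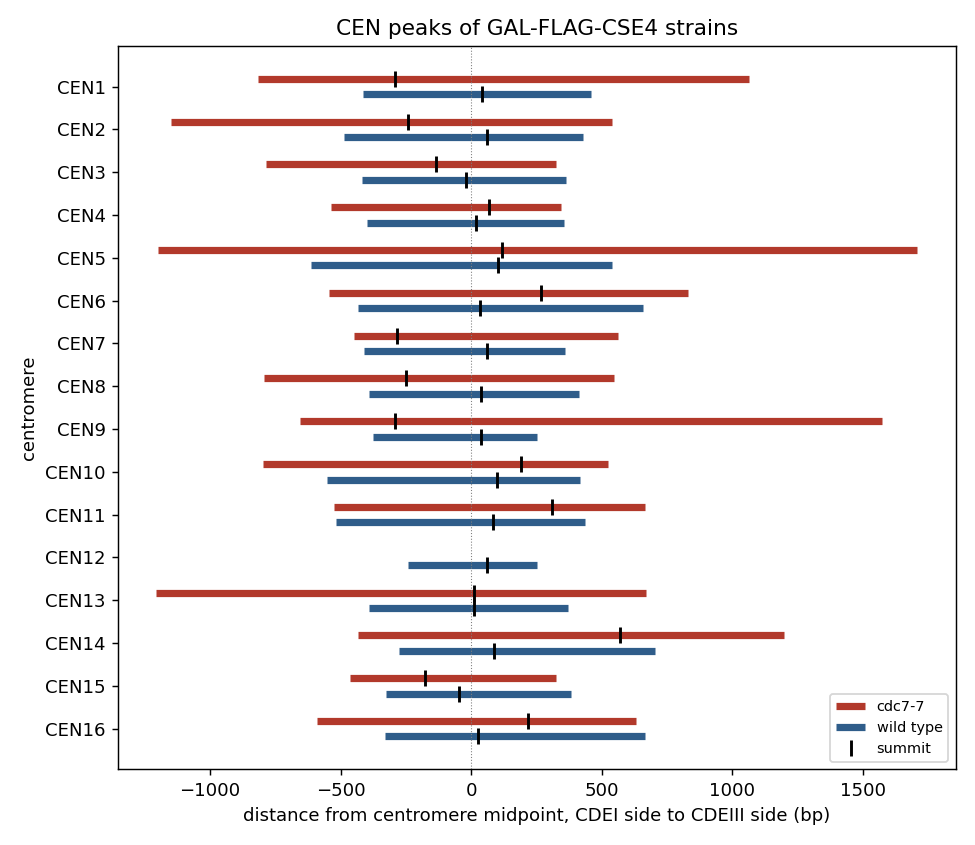
CEN peaks in cdc7-7 (red, upper bar) and wild type (blue, lower bar) at each of the 16 centromeres. The x axis gives the distance in bp from the centromere midpoint, CDEI side on the left, and black ticks are summits. The cdc7-7 bars are longer at all 15 centromeres that have both, and 1 of their summits lies within the centromere, against 10 of the wild type summits. CEN12 has a bar in wild type alone.

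The largest gains in width were at CEN9, with 2225 bp in cdc7-7 and 628 bp in wild type, and at CEN5, with 2905 bp in cdc7-7 and 1152 bp in wild type. CEN13 followed with 1873 bp in cdc7-7 and 761 bp in wild type. CEN1 measured 1880 bp in cdc7-7 and 872 bp in wild type. The smallest gains were at CEN15, with 790 bp in cdc7-7 and 707 bp in wild type, and at CEN4, with 879 bp in cdc7-7 and 755 bp in wild type. CEN13 and CEN4 were the 2 strongest centromeres in both strains, and their width ratios were 2.46 and 1.16. Whether the width ratio went with enrichment over the 15 centromeres was not tested. At 11 of the 15 shared centromeres the cdc7-7 peak reached farther than the wild type peak on both sides, and at CEN3, CEN4, CEN15 and CEN16 on the CDEI side alone. The cdc7-7 peaks ran past the centromere by 596 bp at the median on the CDEI side and 571 bp on the CDEIII side, against 349 bp and 356 bp in wild type.

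The summits lay off the centromere. In cdc7-7 the summit lay within the centromere at 1 of 15, CEN13, and at a median distance of 182 bp from its nearest edge (up to 512 bp, at CEN14). In wild type it lay within the centromere at 10 of the same 15, and the other 5 were at most 44 bp away. The summits of a pair were 228 bp apart at the median. CEN13 had the same summit in both strains, CEN5 summits were 17 bp apart and CEN4 summits 51 bp apart, while those of CEN14 were 485 bp apart. The shift had no common side: on the axis from CDEI to CDEIII, the cdc7-7 summit was beyond CDEIII at 7 centromeres and before CDEI at the other 7. CEN1 and CEN9 summits were each 234 bp before CDEI, and those of CEN11 and CEN6 were 252 and 207 bp past CDEIII.

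Summit pileups, not scaled to library depth, were higher in cdc7-7 and enrichments lower at every pair. The pileup ratio of cdc7-7 to wild type was 1.74 at the median (1.24 to 3.23), while the background ratio was 3.82 (3.38 to 4.11). Fold enrichment was 0.455 of that of wild type at the median (0.332 to 0.854) and lower at 15 of 15. CEN13 had 917 fragments over a background of 158.5 in cdc7-7 (fold enrichment 5.75), against 673 over 43.8 in wild type (15.0). CEN4 had 695 fragments over 144.2 in cdc7-7 (4.79), against 538 over 42.7 in wild type (12.3). These were the highest enrichments of each list. The largest loss was at CEN14, where 418 fragments over 145.5 in cdc7-7 gave 2.86 and 336 over 38.1 in wild type gave 8.63.

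CEN8 had 308 fragments over 145.6 in cdc7-7 (2.11) and 234 over 38.0 in wild type (6.03). CEN1 had 409 over 139.1 in cdc7-7 (2.93) and 302 over 36.6 in wild type (8.06). The enrichment ratios were 0.350 at CEN8 and 0.363 at CEN1, close to that of CEN14. CEN9 was the exception, with 362 fragments over 134.8 in cdc7-7 (2.67) and 112 over 35.1 in wild type (3.13). It was the weakest centromere of wild type and ranked 7 of 15 in cdc7-7. CEN15 and CEN3 also rose in rank. CEN15 had 403 over 139.4 in cdc7-7 (2.88) and 154 over 36.5 in wild type (4.13), and CEN3 had 487 over 146.2 in cdc7-7 (3.32) and 237 over 40.6 in wild type (5.72).

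At the other shared centromeres, in cdc7-7 the enrichment was 2.55 at CEN2, 2.55 at CEN5, 2.43 at CEN6, 2.00 at CEN7, 1.89 at CEN10, 2.06 at CEN11 and 2.25 at CEN16. In wild type it was 6.16 at CEN2, 5.46 at CEN5, 4.04 at CEN6, 4.13 at CEN7, 4.15 at CEN10, 4.90 at CEN11 and 4.82 at CEN16. The lowest of these in wild type, CEN6, was above all cdc7-7 centromeres other than CEN13 and CEN4.

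The fragments above background, which do not divide by it, gave another order. This excess was 1.21 times that of wild type at the median (0.828 to 2.95), higher in cdc7-7 at 13 of 15 and lower at CEN8 and CEN14. It was not scaled for depth. Divided by the non-CEN median of each list, the enrichment ratio was 0.577, with 14 of 15 centromeres below 1. The lowest non-CEN enrichment was 1.10 in cdc7-7 and 1.63 in wild type. With such unlike floors, dividing by these medians does not normalize the strains to each other. The part of library depth in the higher background was not tested.

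**Figure D2:**
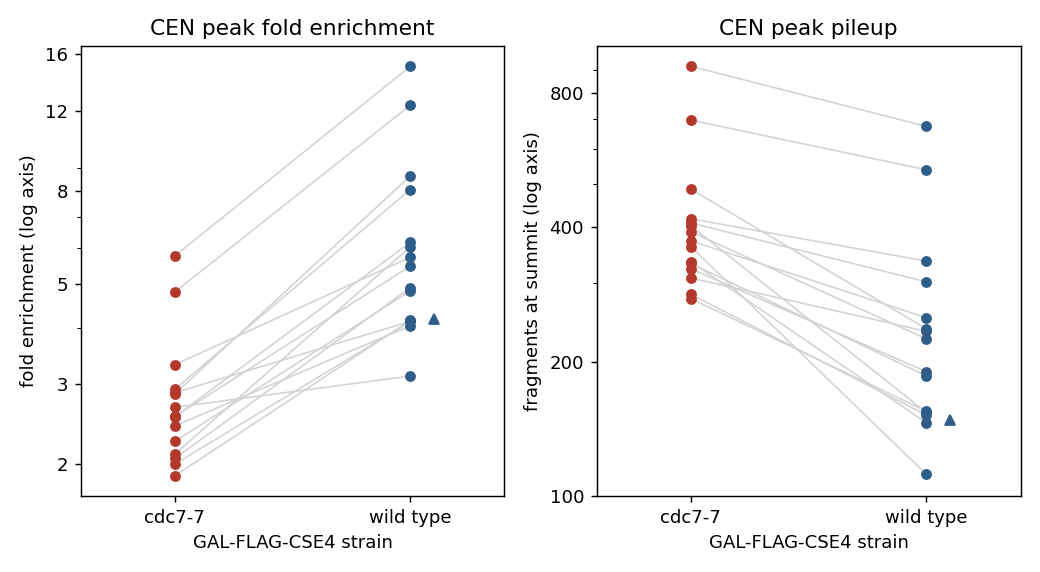
Fold enrichment (left, log axis) and fragments at the summit (right, log axis) of each CEN peak, cdc7-7 beside wild type, with a line joining each of the 15 pairs and a triangle for CEN12 in wild type. All 15 lines climb to wild type for fold enrichment and all 15 fall to wild type for fragments.

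CEN12 had no overlapping peak in cdc7-7. The nearest cdc7-7 peak lay beside it at chrXII:151074-151587, 126 bp from the centromere, with its summit at 151258 and 248 fragments over 146.0 (fold enrichment 1.69). The wild type CEN12 peak, chrXII:150638-151130, was 493 bp wide, the narrowest of its list at a centromere, with 148 fragments over 34.6 (4.18). The 2 peaks overlap each other, but the cdc7-7 one stops short of the centromere and is counted below among the non-CEN peaks. Near the other centromeres cdc7-7 had further peaks too, 1 to 4 within 5 kb at each, whereas wild type had 0 at all of them. These neighbors were counted as listed, without scaling to the wild type background. Over whole chromosomes, non-CEN peaks numbered 9.99 to 20.8 per 100 kb in cdc7-7 and 0 to 0.693 in wild type. Wild type thus had few such peaks anywhere, and its 0 does not set these stretches apart.

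The 2188 non-CEN peaks of cdc7-7 included 20 that overlapped a wild type non-CEN peak. Thus 20 of the 30 wild type sites were shared (66.7%, 95% Wilson interval 48.8 to 80.8%, counting error only), 10 were found in wild type alone, and 2168 cdc7-7 peaks were gained (99.1% of its non-CEN peaks). Of these 2168, 1 overlapped the wild type CEN12 peak and 2167 overlapped no wild type peak. At the shared sites the summits were 33.5 bp apart at the median and within 100 bp at 14 of 20. The enrichment was 1.74 at the median in cdc7-7 and 1.98 in wild type, a ratio of 0.906 (0.675 to 1.23), higher in cdc7-7 at 6 sites and in wild type at 14. At the centromeres the ratio was 0.455 at the median and 0.854 at most, and 7 of the 20 shared sites had a ratio below that highest value. Shared sites are by definition those called in both lists.

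Of the 6 sites higher in cdc7-7, 4 lay between genes. Upstream of MIT1, a transcription factor gene, the site had 425 fragments over 170.8 in cdc7-7 (2.48) and 81 over 39.8 in wild type (2.01). Between VTC1 and ALD5 there were 270 fragments over 136.5 in cdc7-7 (1.97) and 64 over 38.9 in wild type (1.63). Between FLC2 and OAF1, the gene of an oleate-responsive transcription factor, there were 279 over 120.1 in cdc7-7 (2.31) and 74 over 34.1 in wild type (2.14). The divergent CNL1 and GGA1 promoters had 340 over 142.9 in cdc7-7 (2.37) and 87 over 38.7 in wild type (2.21). AXL1, which encodes a protease for a-factor, had 2.17 in cdc7-7 and 2.03 in wild type within the gene. These 5 sites were 850 bp (AXL1), 1013 bp (MIT1), 1151 bp (ALD5), 491 bp (OAF1) and 938 bp (CNL1) wide in cdc7-7, against 420, 349, 320, 387 and 384 bp in wild type.

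The sixth, in LEU2, and 2 more shared sites had an unusually high background. LEU2 had 1193 fragments over 580.0 in cdc7-7 (2.06) and 245 over 138.3 in wild type (1.77). YHR054C, beside the repeated CUP1 genes, had 1179 over 524.7 in cdc7-7 (2.24) and 445 over 180.4 in wild type (2.46). The rDNA peak had an enrichment of 1.67 in cdc7-7 and 2.09 in wild type, and its pileup could not be solved in either list. The copy number of these loci in the strains was not tested. Among sites higher in wild type, ATP1, the alpha subunit of mitochondrial ATP synthase, had the lowest ratio, with 162 over 120.1 in cdc7-7 (1.35) and 71 over 35.1 in wild type (2.00).

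The remaining shared sites were in ZEO1, with an enrichment of 1.82 in cdc7-7 and 2.34 in wild type, in GCN4, the activator of amino acid biosynthesis, with 1.50 in cdc7-7 and 1.95 in wild type, and in YDR524C-B, with 1.55 in cdc7-7 and 1.94 in wild type. Upstream of genes they were between PRP6 and MRX18 (1.66 in cdc7-7 and 2.07 in wild type), at CDC55, a regulatory subunit of protein phosphatase 2A (1.87 and 2.01 in the same order), at NDL1 (1.71 and 1.92) and at NUC1 (1.42 and 1.92). Between gene ends they were at HIP1 and TDH3 (1.66 and 1.91), GRX5 and PDR12 (1.69 and 1.84), GCY1 and PFY1 (1.65 and 1.70), and YLR326W and TMA10 (1.76 and 1.96). The last pair of peaks overlapped but had summits 1205 bp apart, the farthest of all.

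The 10 sites found in wild type alone included 6 inside genes. PMA1, the plasma membrane proton pump, held 2 inside the gene (enrichment 1.97 and 1.93), and a further site lay between LEU1 and PMA1 (1.78). Others were inside HSP82 (1.94), the Hsp90 chaperone, ATP2 (1.87), the beta subunit of the ATP synthase, DSE1 (1.77) and NDE1 (1.64), a mitochondrial NADH dehydrogenase. Between the ends of HSP150 and CIS3, both cell wall genes, the enrichment was 1.88. Just the SKG6 and PEX28 site (1.86) was within 500 bp upstream of a start codon, and the NPL3 and GPI17 site (2.07) was 625 bp upstream of GPI17. Pileups at these sites were 61 to 78 fragments. The nearest cdc7-7 peak was 341 to 10865 bp away. Of the wild type sites found in wild type alone, 5 of 10 overlapped a peak in one of the endogenous Cse4 lists, as did 11 of the 20 shared sites and 415 of the 2168 gained sites (19.1%).

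The sites gained in cdc7-7 fell on every chromosome. They numbered 224 on chromosome VII, 273 on IV and 204 on XV, and 22 on I. Per 100 kb, chromosomes XVI, VII and V had 20.6, 20.5 and 20.3 gained peaks. The density was between 15.1 (XII) and 19.1 (II) on the other chromosomes except I, where it was 9.56. Chromosome I also had the fewest genes, 40.8 per 100 kb against 47.7 to 53.1 elsewhere. On XI, XIV, IX and VI cdc7-7 had 111, 129, 71 and 42 gained peaks and wild type had 0 non-CEN peaks, while wild type had 5 on VII and 4 on V. The ratio of the highest to the lowest chromosome was 2.15. It was 1.36 without chromosome I, an alternative chosen after the data were seen.

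**Figure D3:**
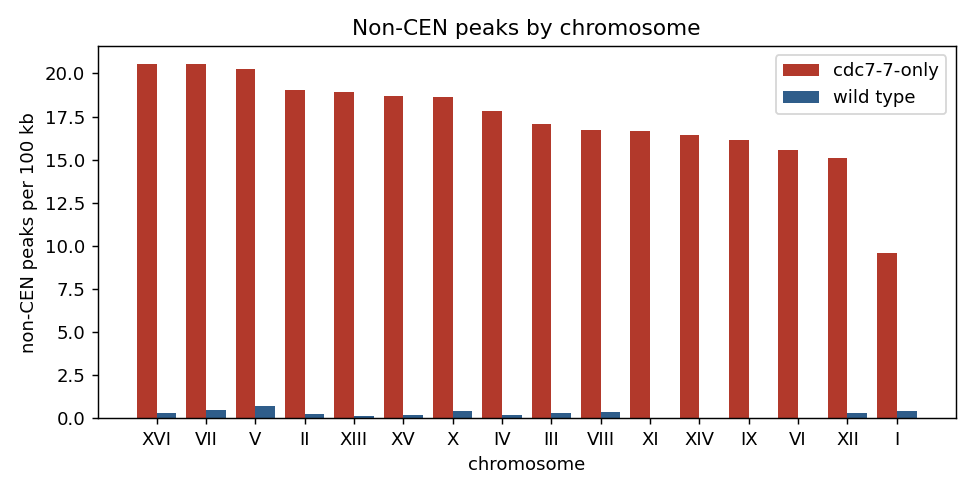
Non-CEN peaks per 100 kb on each chromosome, gained cdc7-7 peaks (red) beside all wild type non-CEN peaks (blue), ordered by the red bars. Red bars lie between 9.56 on I and 20.6 on XVI, and the highest blue bar is 0.693 on V.

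Among the 566 peaks that passed with pileups scaled to the wild type background, the order changed. Chromosome III was then the densest, with 19 gained peaks, and VI the least dense, with 6 peaks or 2.22 per 100 kb, next to I with 2.61. Chromosomes VII, XVI and V still had 5.96, 5.80 and 5.72. Peaks with an enrichment of at least 2 numbered 4 on III, 8 on XI, 5 on V, 8 on XVI and 9 on VII, or 1.26, 1.20, 0.867, 0.844 and 0.825 per 100 kb, and there were none on IX and I. Chromosome XII, which carries the rDNA, had a median background of 162.3 fragments at its gained peaks, where the others had 136.4 to 144.4, and 1 of its 163 gained peaks reached an enrichment of 2.

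Along the chromosomes, gained peaks were dense beside the centromeres and sparse at the ends. From 0 to 5 kb of a centromere there were 23.8 per 100 kb, from 5 to 10 kb 31.9, from 10 to 20 kb 21.6 and beyond 200 kb 17.3. The outermost 10 kb of the chromosomes held 8 peaks, 2.50 per 100 kb, and the next 10 kb held 29, 9.06 per 100 kb. Subtelomeres hold many repeated genes, to which reads were not assigned where they matched more than 1 position, and the part of this in the low density was not tested.

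The fullest 50 kb were on chromosome X (526096 to 576095), with 20 summits. They included the divergent promoters of UTR1, an NAD kinase, and ISY1 (1.68), and the promoters of CDC8 (1.68), which encodes thymidylate kinase, ARP3 (1.58), of the Arp2/3 complex, RFC2 (1.52), a clamp loader subunit, and CBF1 (1.49), the CDEI binding protein. Of the 27 genes there, 14 had a summit within 500 bp upstream. A stretch of chromosome VII (381178 to 431177) held 19 summits, led by OCH1 (2.04), a mannosyltransferase, OLE1 (1.90), the fatty acid desaturase, the pair MRH4 and PUS2 (1.82), and the pair DUO1 and YBP2 (1.79). DUO1 encodes a subunit of the Dam1 kinetochore complex. On chromosome V (237252 to 287251) there were 18, led by the site between YER053C-A and GIP2 (1.88) and by HOM3 (1.85), aspartate kinase.

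The longest stretches with no peak were 47829 bp on chromosome XV (689809 to 737637), 45512 bp on VII (23973 to 69484) and 43249 bp on XIV (716046 to 759294). These were not empty of genes, with 19, 24 and 17. The stretch on XV held HIS3, DED1, an RNA helicase gene, TOA1, a TFIIA subunit gene, and SLK19, a kinetochore gene. That on VII held RTG2, CSE1 and SEC15, and that on XIV held POP2, NOG2 and the biotin genes BIO3, BIO4 and BIO5.

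Gained peaks sat upstream of genes. Of the 2168, 1475 (68.0%) had a summit within 500 bp upstream of a start codon, a zone that makes up 21.3% of the nuclear genome, whereas 9 of 30 wild type non-CEN summits did (30.0%). Between divergent genes lay 30.7% of gained summits (8.82% of the genome), between tandem genes 36.8% (13.7%), inside genes 30.8% (72.8%) and between converging genes 1.71% (4.32%). Wild type had 10.0% between divergent, 26.7% between tandem and 20.0% between converging genes, and 43.3% inside genes. The signed distance to the nearest start codon was 95 bp upstream at the median of the gained peaks (interquartile range 265 bp upstream to 22 bp downstream), against 33 bp downstream in wild type.

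**Figure D4:**
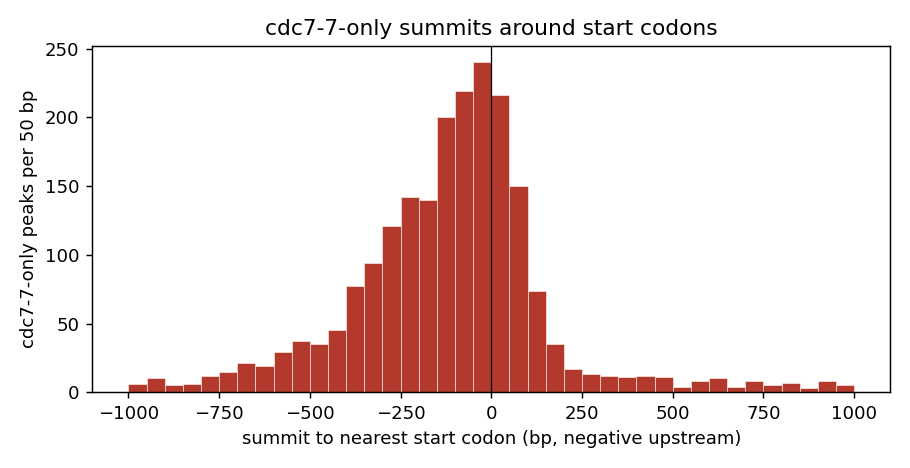
Gained cdc7-7 summits by distance to the nearest start codon, in bins of 50 bp, with negative distances upstream. Summits pile up just upstream of 0, with a median 95 bp upstream.

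The stronger gains were wider and lay farther upstream. The enrichment and the width of a peak come from the same peak calling, so they are not independent measures. Among the 542 with the highest enrichment (1.67 to 2.54) the median width was 603.5 bp, 74.5% were within 500 bp upstream, and 114 summits were inside genes. Among the 542 with the lowest (1.10 to 1.43) the width was 394.5 bp, 60.0% were within 500 bp upstream, and 222 were inside genes. The median summit was 142 bp upstream of the start codon in the highest 542 and 62.5 bp upstream in the lowest. Of the 72 gained peaks with an enrichment of at least 2, 0 lay between converging genes. The median background was 141.6 in the highest 542 and 143.3 in the lowest.

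The 5 strongest gained summits are shown as the 30 bases around each summit, on the plus strand of build R64. Capitals mark a match to one of the motifs named further on, and a sequence without capitals holds none of them.
LYS21 promoter, chrIV:227099-227128: agaaatccgcgtagaaatcacgtCGCGCaa
RTN1 promoter, chrIV:930543-930572: gaaagggggcactgaccaactttaaatagg
SSO2 promoter, chrXIII:627910-627939: ccaacagcatttatttgtcattttacttgc
YCH1 gene, chrVII:905313-905342: ctactacgctgagggagcctttccaggtag
upstream of AFT1, chrVII:371494-371523: cattggccgttttaacgcaagttggcgtac

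The strongest gain lay 279 bp upstream of LYS21, a homocitrate synthase gene, with 307 fragments over 120.1 (enrichment 2.54). The next was 201 bp upstream of RTN1, between it and LYS4, also a lysine biosynthesis gene, with 407 fragments over 164.4 (2.47). SSO2, which encodes a plasma membrane t-SNARE, had a summit 117 bp upstream (2.37). YCH1 had one 91 bp inside the gene (2.34). The summit nearest AFT1, the iron-responsive activator, was 503 bp upstream (2.33).

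Further down among the 20 strongest, metabolic genes included SPE1, ornithine decarboxylase (2.31), GLN1, glutamine synthetase (2.30), and ERG11, lanosterol demethylase (2.20). Genes of growth and polarity included MSB1 (2.30), GIN4, a bud neck kinase (2.28), GPA1, the G alpha subunit of the mating pathway (2.28), and SBE22 (2.17). Others lay by CAM1, a subunit of translation elongation factor 1B (2.27), BPT1, a vacuolar transporter (2.24), PST2 (2.21), TFB6, of TFIIH (2.18), MDV1, of mitochondrial fission (2.17), and IST2 (2.17). The YMR122C site (2.30) was inside that gene, beside NCW1. The PST2 and MDV1 sites overlapped the annotated origins ARS450 and ARS1008. Whether gained peaks overlapped origins more often than the rest of the genome was not tested. The study reports no significant enrichment at replication origins in its mutant strain. Of the 20, 9 overlapped a non-CEN peak of the endogenous wild type list, as did 392 of all 2168 gained peaks (18.1%), and 1 overlapped a non-CEN peak of the endogenous cdc7-7 list, as did 72 of the 2168 (3.32%).

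Short motifs were counted, on both strands, in the gained summit with the 50 bases on each side, in adjoining windows of that length over the whole genome, and in windows of that length that begin 51 bp upstream of each start codon. CGCGC, the core bound by the RSC subunit Rsc3, was in 6.69% of gained windows, 2.33% of genome windows and 4.02% of upstream windows, and in 0 of the 30 wild type windows. CACGTG, the Cbf1 core, was in 1.29% of gained windows, 0.740% of genome windows and 0.650% of upstream windows. TATAAA was in 9.64%, 10.9% and 24.5% in the same order. A run of 8 A was in 4.43%, 4.60% and 15.1%, and TTACCCG, the Reb1 core, in 26 of 2168 gained windows, 0.623% of genome windows and 2.82% of upstream windows. CCCATAC (Rap1), TGACTC (Gcn4), TCCGAA (a part of CDEIII) and the Gal4 site were in 0.692%, 2.68%, 3.87% and 0.646% of gained windows, against 0.643%, 3.04%, 3.24% and 0.446% of genome windows. A base can belong to matches of more than 1 motif. The AT content was 60.4% at the median of gained windows, 61.4% over the genome and 65.3% upstream of start codons.

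By gene, 1831 of 6002 protein-coding genes (30.5%) had a cdc7-7 summit within 500 bp upstream of the start codon, against 12 (0.2%) in wild type. With gained peaks alone it was 1818 genes (30.3%), the share against which each function is read below. No gene had more than 1 such summit. Genes that share their upstream region with a divergent neighbor had one in 34.5% of cases, and genes behind a tandem neighbor in 25.7%. Where the intergenic region was at most 100 bp long the share was 13.6%, and where it was over 250 and up to 500 bp long 32.2%.

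**Figure D5:**
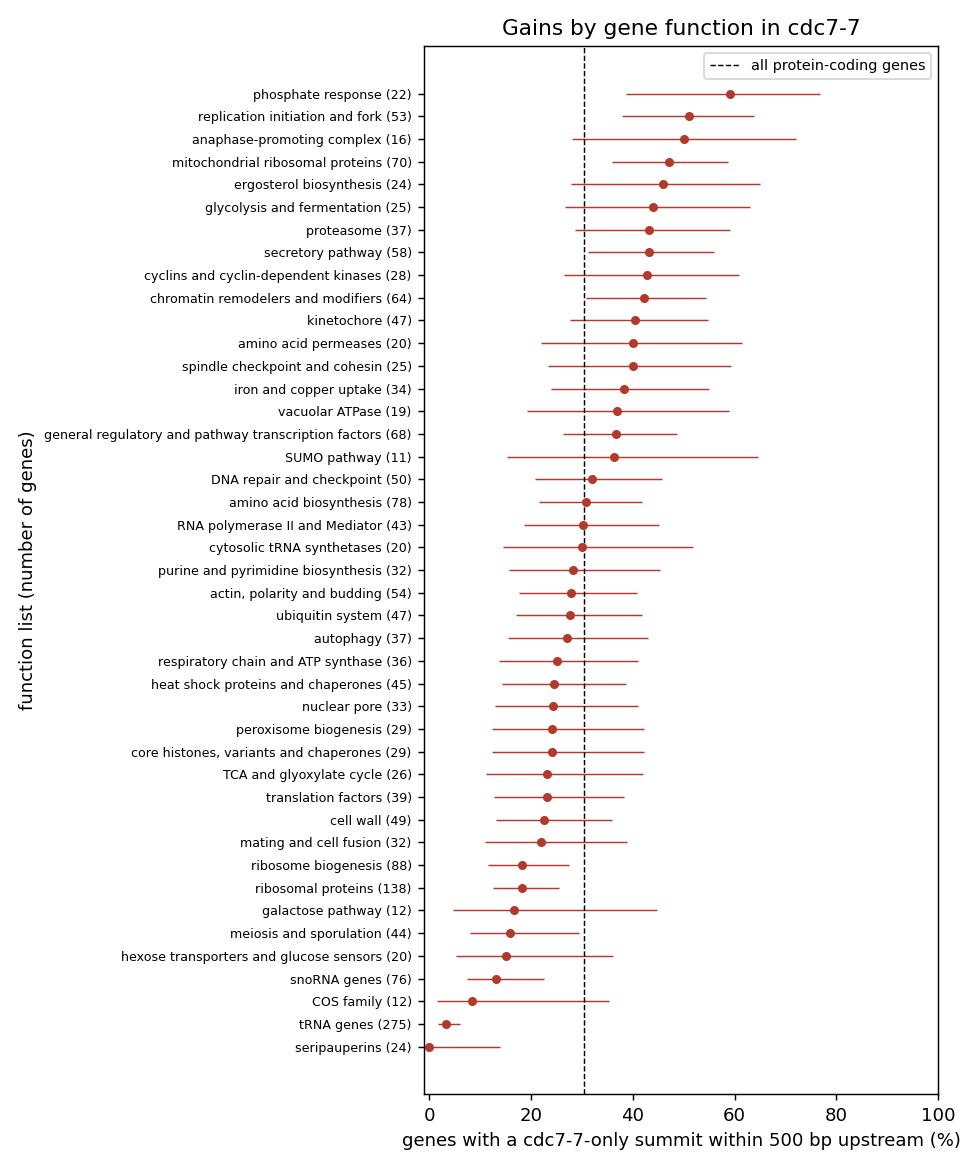
Percent of genes in each function list with a gained cdc7-7 summit within 500 bp upstream of the start codon (points), with 95% Wilson intervals that cover counting error only (bars). The number of genes is beside each list, and the dashed line is the 30.3% of all protein-coding genes. Phosphate response stands highest at 59.1% and seripauperins lowest at 0%.

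Of 41 lists of genes by function, 7 lay above the share of all genes and 11 below it under each of 4 settings: a summit within 500 bp, a summit within 250 bp, any overlap with the 500 bp, and the peaks that passed when scaled to the wild type background, a setting chosen after the data were seen. The other 23 changed sides. All settings draw on the same cdc7-7 peaks, so they are not independent of each other. A side needed no minimum difference, and some lists lay close to the share of all genes. A minimum enrichment of 2, where 0.966% of all genes had a gain, left 4 above and 9 below in all 5 settings. Genes of the phosphate response had the highest share, 13 of 22 (59.1%). They included PHO4, the activator of the pathway (2.14), the transporter PHO87 (1.94), and, chosen after their values were seen, the CDK inhibitor PHO81 (1.87), the polyphosphate synthase VTC4 (1.85) and the phosphatase PHO5 (1.51). Scaled to the wild type background, 5 of the 22 (22.7%) passed, against 8.21% of all genes.

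Mitochondrial ribosomal proteins had a gained summit upstream in 33 of 70 genes (47.1%), led by MRP1 (2.02) and MRP4 (1.87). Cytosolic ribosomal proteins had one in 25 of 138 (18.1%), led by RPL36B (1.73) and RPS4B (1.71). Ribosome biogenesis genes had one in 16 of 88 (18.2%), led by RRS1 and BFR2 (1.70 each). Scaled to the wild type background, these counts were 7 of 70 (10.0%) for the mitochondrial proteins and 4 of 138 (2.90%) for the cytosolic ones. For biogenesis the count was 1 of 88 (1.14%), against 8.21% of all genes. The median intergenic length upstream was 309 bp for the mitochondrial and 634 bp for the cytosolic ribosomal proteins.

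The other lists above the share of all genes in the 4 settings were the secretory pathway, chromatin remodelers and modifiers, transcription factors, iron and copper uptake, and the SUMO pathway. Of the secretory genes 25 of 58 had a gain (43.1%), led by SSO2 (2.37) and the v-SNARE gene SNC2 (2.02). Of the chromatin genes 27 of 64 had one (42.2%), led by SNF11 of SWI/SNF (1.91) and SPT3 of SAGA (1.84). Transcription factor genes had one in 25 of 68 (36.8%), led by PHO4 and by PDR1, of drug resistance (2.10). Iron and copper uptake genes had one in 13 of 34 (38.2%), led by AFT2 (1.92) and FRE7 (1.90). All 4 of the 11 SUMO genes with a gain can be named: SMT3, SUMO itself (1.83), the conjugating enzyme UBC9 (1.68), the protease ULP1 (1.54) and the ligase MMS21 (1.39). Scaled to the wild type background, the lists had gains in 6 of 58 secretory (10.3%), 7 of 64 chromatin (10.9%), 10 of 68 transcription factor (14.7%), 7 of 34 iron and copper (20.6%) and 1 of 11 SUMO genes (9.09%), against 8.21% of all genes. Within 250 bp the transcription factors were at 19.1%, against 18.5% of all genes. At an enrichment of at least 2, no chromatin, iron and copper, or SUMO gene had a gain.

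Below the share of all genes in the 4 settings, beside the ribosomal lists, were meiosis and sporulation with 7 of 44 (15.9%), hexose transporters and glucose sensors with 3 of 20 (15.0%), and mating and cell fusion with 7 of 32 (21.9%). The 3 of the hexose list were the sensor genes SNF3 (1.78) and RGT2 (1.42) and the repressor RGT1 (1.48), while no HXT transporter gene had one. The mating list was led by GPA1 (2.28) and PRM3 (1.75), the meiosis list by MND1 (1.64) and REC107 (1.48). Heat shock proteins and chaperones had 11 of 45 (24.4%), led by LHS1 (1.92) and SSA2 (1.76). Nuclear pore genes had 8 of 33 (24.2%), translation factors 9 of 39 (23.1%) and ubiquitin system genes 13 of 47 (27.7%), led by NDC1 (1.78) and NUP49 (1.71), CAM1 (2.27) and EFT2 (1.77), and NPL4 (1.74) and UBC4 (1.69). Some of these differences were small. With any overlap, nuclear pore genes were at 45.5%, against 46.5% of all genes. Within 250 bp, ubiquitin system genes were at 17.0%, against 18.5% of all genes. At an enrichment of at least 2, translation factors (2.56%) and mating genes (3.13%) lay above the 0.966% of all genes. The subtelomeric families had 1 of 12 COS genes (COS6, 1.53) and 0 of 24 seripauperin genes. Reads that matched more than 1 position were not assigned, and the part of this in these low counts was not tested.

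DNA replication genes changed sides. A gained summit lay upstream of 27 of 53 replication genes (50.9%), with RAD27, the flap endonuclease (1.70), and the ligase gene CDC9 (1.69) in the lead, but the median enrichment was 1.50 and 1 of 53 passed when scaled to the wild type background. The anaphase-promoting complex, with 8 of 16 (50.0%, APC1 1.64 and CDC20 1.58), went to 1 of 16. Kinetochore genes had 19 of 47 (40.4%), led by NKP2 (1.88) and DUO1 (1.79), and 3 of 47 when scaled to the wild type background. Proteasome genes had 16 of 37 (43.2%, RPN2 1.85 and RPN6 1.83) and 3 of 37, and cyclins and their kinases 12 of 28 (42.9%, CLB5 2.14 and CKS1 1.84) and 2 of 28. Spindle checkpoint and cohesin genes had 10 of 25 (40.0%, YCG1 1.78 and PDS1 1.73) and 2 of 25. Scaled to the wild type background, 8.21% of all genes passed. The shares were 1.89% for replication, 6.25% for the anaphase-promoting complex and 6.38% for kinetochore genes. They were 8.11% for proteasome, 7.14% for cyclin, and 8.0% for spindle checkpoint and cohesin genes. Some of these lay close to the share of all genes.

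Within these lists, and chosen after their values were seen, were several genes of the pathway under study. CDC7 itself had a gained summit upstream (1.47), as did DBF4 (1.53), PSH1 (1.54) and SCM3, the Cse4 chaperone (1.51). Among all protein-coding genes 30.3% had one, with a median enrichment of 1.54, so these values do not set the named genes apart. Genes of the pathway without a gained summit are not listed here. Inside CSE4 there was a gained peak with the lowest enrichment of the list, 1.10, whose pileup could not be solved. The integrated GAL-FLAG-CSE4 also holds CSE4 sequence, and its part in this peak was not tested.

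Metabolic lists differed among themselves. Ergosterol biosynthesis had 11 of 24 genes (45.8%), with 3 of them at an enrichment of at least 2: ERG11 (2.20), ERG4 (2.10) and ERG6 (2.01). Glycolysis and fermentation had 11 of 25 (44.0%), led by PDC1 (1.95) and PFK2 (1.77). Scaled to the wild type background, 7 of 24 ergosterol (29.2%) and 5 of 25 glycolytic genes (20.0%) passed, against 8.21% of all genes. Both lists fell below the share of all genes in another setting. Amino acid biosynthesis had 24 of 78 (30.8%), near the share of all genes, although LYS21 (2.54) and GLN1 (2.30) were among the strongest gains. Amino acid permeases had 8 of 20 (40.0%, ALP1 1.80 and SAM3 1.73). The galactose pathway, which the medium induces, had a gained summit in 2 of 12 (PGM1, 1.58, and UGP1, 1.53), while a gained peak had any overlap with the 500 bp in 7 of 12 (58.3%, against 46.5% of all genes). Neither GAL1 nor GAL10 had a gained summit upstream.

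Further lists lay within a few percentage points of all genes: DNA repair and checkpoint with 16 of 50 (LCD1 2.00 and SAE2 1.98), RNA polymerase II and Mediator with 13 of 43 (SRB2 1.82 and RPB3 1.64), cytosolic tRNA synthetases with 6 of 20 (YDR341C 1.91 and ALA1 1.71), purine and pyrimidine biosynthesis with 9 of 32 (RNR4 and RNR1, 1.79 each), and actin and polarity with 15 of 54 (MSB1 2.30 and AXL1 2.02). The vacuolar ATPase had 7 of 19 (VMA4 1.80 and VMA5 1.68) and autophagy 10 of 37 (ATG13 1.83 and ATG41 1.80). Histones, variants and their chaperones had 7 of 29 (24.1%), led by the linker histone HHO1 (1.87) and NHP6B (1.83), the respiratory chain 9 of 36 (ATP19 1.81 and NDE1 1.78), the TCA cycle 6 of 26 (SDH1 2.16 and IDP1 1.77) and peroxisome biogenesis 7 of 29 (PEX21 1.89 and PEX15 1.88). Cell wall genes had 11 of 49 (22.4%, PST1 1.89 and KRE6 1.80) but 59.2% had any overlap of a gained peak with the 500 bp, above the 46.5% of all genes, and 2.04% a summit within 250 bp. Outside protein-coding genes, a gained summit lay upstream of 9 of 275 tRNA genes (3.27%) and 10 of 76 snoRNA genes (13.2%). No matching background share is given for these genes, so their counts are not read as high or low against protein-coding genes. Reads without a unique position were not assigned, and the part of this in the tRNA and snoRNA counts was not tested.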

How the data were processed

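Peak lists of 1 ChIP library per strain were analysed. The members, gene lists and rules were chosen with earlier results of these data known. Per the study's methods, the authors aligned paired reads uniquely to S288C (R64) with Bowtie 1.0.0, took out duplicate reads with SAMtools, and ran MACS against each input at a q of 0.05. Library totals were not analysed here. The deposited columns used were fold enrichment (a ratio over the local background), −log10 p and −log10 q, and the summit offset. Pileup and background at each summit were solved from fold enrichment, (pileup + 1)/(background + 1), and the Poisson −log10 p, for 2201 of 2203 cdc7-7 and 45 of 46 wild type peaks, checked on simulated peaks. Peaks were shared with at least 1 bp of overlap, and were CEN peaks if they overlapped a centromere. Genes came from RefSeq build R64. Intervals are 95% Wilson intervals. Named were the 16 centromeres, all wild type non-CEN sites, the 20 strongest gains (1 of them is not reported here), genes in the 3 fullest 50 kb and the 3 longest gaps, and the 2 highest genes of each list (all if at most 5 had a peak). Alternatives changed the thresholds on q and fold, the overlap, the upstream window, the background scaling and the CEN definition. The endogenous lists were used for overlaps alone. Python 3.11.15, pandas 2.3.3 and scipy 1.17.1 were used.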

Additional observations from a re-analysis of the deposited data

How the results depend on the processing

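With 1 library per strain, no setting measures replicate error. The CEN results kept their direction in the settings tried. The enrichment ratio was 0.448 without the pseudocount, 0.320 on pileup minus background, over background, and 0.577 over the non-CEN median. The non-CEN medians come from lists with unlike floors, so the last value does not normalize the strains. The width ratio was 1.42 with close peaks merged, and no setting compared widths at equal background. From the CEN midpoint, the summit distance was 240 bp in cdc7-7 and 42.5 bp in wild type. Counts moved. The non-CEN peaks numbered 78 in cdc7-7 and 10 in wild type at an enrichment of at least 2, 1583 and 12 at a −log10 q of at least 5, 694 and 30 above the lowest wild type enrichment, and 566 and 30 when scaled to the wild type background. With cdc7-7 peaks of an enrichment of at least 2, 6 wild type sites were shared and 24 were in wild type alone; 16 and 14 were so with summits at most 250 bp apart. The chromosome ratio was 1.83 without the ends and rDNA, 2.70 when scaled to the wild type background and 1.36 without chromosome I. The upstream share of gains was 44.7% at 250 bp, 82.0% at 1000 bp, 70.8% at an enrichment of at least 2 and 73.6% when scaled to the wild type background. The share of all genes was 46.5% with any overlap, 18.5% within 250 bp, 0.966% at an enrichment of at least 2 and 8.21% when scaled to the wild type background. The background scaling of the chromosome ratio, the upstream share and the gene shares was chosen after the data were seen. So was the setting without chromosome I. The settings differ in the number of peaks kept and in the width of the zones. Why each result moved was not tested. No paired analysis was possible because each group has 1 library and no result comes from a test.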
